A study of Homo sapiens with 27 samples.

Results

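The opposing effects of blocking the addition and the removal of O-GlcNAc were followed in MDA-MB-231, a line of invasive human breast cancer cells, by setting each array of cells given 5SGlcNAc against the Thiamet-G array of the same time. The comparison took every array labelled 5SGlcNAc or Thiamet-G at 2, 4, 6, 8 and 24 h, which gave 10 of the 27 arrays of the series and 5 matched pairs. 5SGlcNAc was used at 50 µM and Thiamet-G at 25 µM, so the doses differed. The vehicle, DMSO, had 1 array at each of the same times, and it is given beside the pairs as background. At 0 h each treatment also had 1 array, and that pair shows how far 2 arrays lay apart with no time under treatment. At 48 h there were 3 arrays per treatment, which were normalized separately, so that differences but not levels can be set beside those of 2 to 24 h. All groups were the same line with no genetic change named, and nothing in the labels says that arrays came from separate cultures. Values are log2 expression levels, and a difference is 5SGlcNAc minus Thiamet-G on that scale unless another is named.

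O-GlcNAc is a single sugar attached to serine and threonine residues of nuclear, cytosolic and mitochondrial proteins. The transferase OGT adds it and the hydrolase OGA removes it. 5SGlcNAc is taken up and converted in cells to an analogue of the sugar donor that inhibits OGT, so it lowers O-GlcNAc, and Thiamet-G inhibits OGA, so O-GlcNAc accumulates. Cells are known to hold O-GlcNAc within a range partly by adjusting the amounts of OGT and OGA, including through retained introns in both transcripts. The title of the series names NRF2, a transcription factor for antioxidant and detoxifying enzymes, and KEAP1, the adaptor that targets NRF2 for degradation.

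The arrays of 0 to 24 h correlated at 0.994 or more. The markers of the line VIM, CD44, CAV1, AXL and MSN had mean levels of 12.79 to 14.84 over the 10 arrays. Of the markers listed as low in the line, PGR, CDH1 and ESR1 had mean levels of 3.92, 5.43 and 7.14, whereas EPCAM, GATA3 and KRT18 had 9.13, 9.64 and 13.20; levels of different probe sets are not on a common scale. None of the 18 luminal, 8 haematopoietic and 13 fibroblast markers measured passed the test over 2 to 24 h, and in bulk RNA fewer cells of a type and less RNA per cell cannot be told apart. RNA integrity was followed as the gap between the 3' and 5' control probe sets of ACTB, which came to 0.61 to 0.89 in the 5SGlcNAc arrays of 2 to 24 h. It was 0.47 to 0.95 in the Thiamet-G arrays, apart from 1.24 at 4 h, and it was 1.64 in the DMSO array of 4 h. The standard deviation of the difference over 11963 genes was 0.141 at 0 h, then 0.160, 0.163, 0.155, 0.186 and 0.214 at 2, 4, 6, 8 and 24 h. Differences past 1.5-fold numbered 21 genes (0.176%) at 0 h, then 35 (0.293%), 53 (0.443%), 35 (0.293%), 61 (0.51%) and 161 (1.35%). The pairs thus lay farthest apart at 24 h, where 57 genes were higher by that measure with 5SGlcNAc and 104 lower.

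Differences that were steady from 2 h onward were small. In a limma fit that blocked on time and took the 5 times in place of replicates, 5 of 11963 genes (0.0418%) passed at a Benjamini-Hochberg adjusted p of 0.05, and all were lower with 5SGlcNAc than with Thiamet-G: BCOR, SPRY1, ZNF551, RIF1 and TGFB2. No gene passed as higher, while 745 genes were higher and 861 lower at an unadjusted p of 0.05. The sign was the same in all 5 pairs for 1700 genes (14.2%), of which 769 were higher and 931 lower.

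SPRY1, a Sprouty inhibitor of receptor tyrosine kinase signalling to ERK, had levels of 8.98, 9.32, 9.34, 9.50 and 9.14 in the 5SGlcNAc arrays of 2, 4, 6, 8 and 24 h, against 9.69, 9.88, 9.83, 9.90 and 9.71 in the Thiamet-G arrays. The DMSO arrays gave 9.14, 9.23, 9.63, 9.67 and 9.73. All 5SGlcNAc levels were thus below all Thiamet-G levels, and the DMSO levels started near those of 5SGlcNAc and reached those of Thiamet-G by 24 h. The mean difference was -0.55 ± 0.054 (SE, 5 pairs; limma adjusted p = 0.027), against 0.10 in the 0 h pair.

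BCOR, a transcriptional corepressor that binds BCL6 and belongs to a Polycomb complex, had levels of 6.30, 6.10, 6.52, 6.60 and 6.34 with 5SGlcNAc, against 6.79, 6.61, 6.99, 6.997 and 6.94 with Thiamet-G. The 5SGlcNAc range ended just below the lowest Thiamet-G level. The mean difference was -0.49 ± 0.047 (SE, 5 pairs; limma adjusted p = 0.027), against 0.14 at 0 h. DMSO lay between the inhibitors at 4 of the 5 times.

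TGFB2, a secreted ligand of the TGF-beta family, had levels of 8.81, 8.58, 8.69, 8.95 and 9.03 with 5SGlcNAc, against 9.11, 9.07, 9.09, 9.39 and 9.40 with Thiamet-G. The groups did not overlap, with a mean difference of -0.40 ± 0.048 (SE, 5 pairs; limma adjusted p = 0.049). DMSO levels were 8.96, 8.69, 8.96, 8.86 and 8.98, between the inhibitors at 3 times and below both at 8 and 24 h. TGFB2 had 4 probe sets, and their mean differences were -0.40, -0.24, -0.40 and 0.12.

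RIF1, which acts in replication timing and in the choice of repair route at DNA breaks, had levels of 8.27, 8.16, 8.25, 8.48 and 8.40 with 5SGlcNAc, against 8.58, 8.57, 8.62, 8.86 and 8.83 with Thiamet-G. ZNF551, a zinc finger gene, had levels of 6.33, 6.17, 6.01, 6.24 and 6.11 with 5SGlcNAc, against 6.75, 6.56, 6.58, 6.72 and 6.67 with Thiamet-G. Neither gene overlapped between the inhibitors, and DMSO lay between them at all 5 times for both. The mean differences were -0.38 ± 0.044 for RIF1 and -0.48 ± 0.050 for ZNF551 (SE, 5 pairs; limma adjusted p = 0.049 and 0.027). ZNF551 already differed by -0.27 at 0 h, and the RIF1 call rested on a probe set of shared sequence, since its other probe set gave a mean difference of 0.12.

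The 5 calls depended on keeping every pair. Leaving out any 1 of the 5 pairs, subtracting the 0 h difference or omitting the time block left 0 calls (limma), with 460 to 2026 genes then at an unadjusted p of 0.05.

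**Figure D1:**
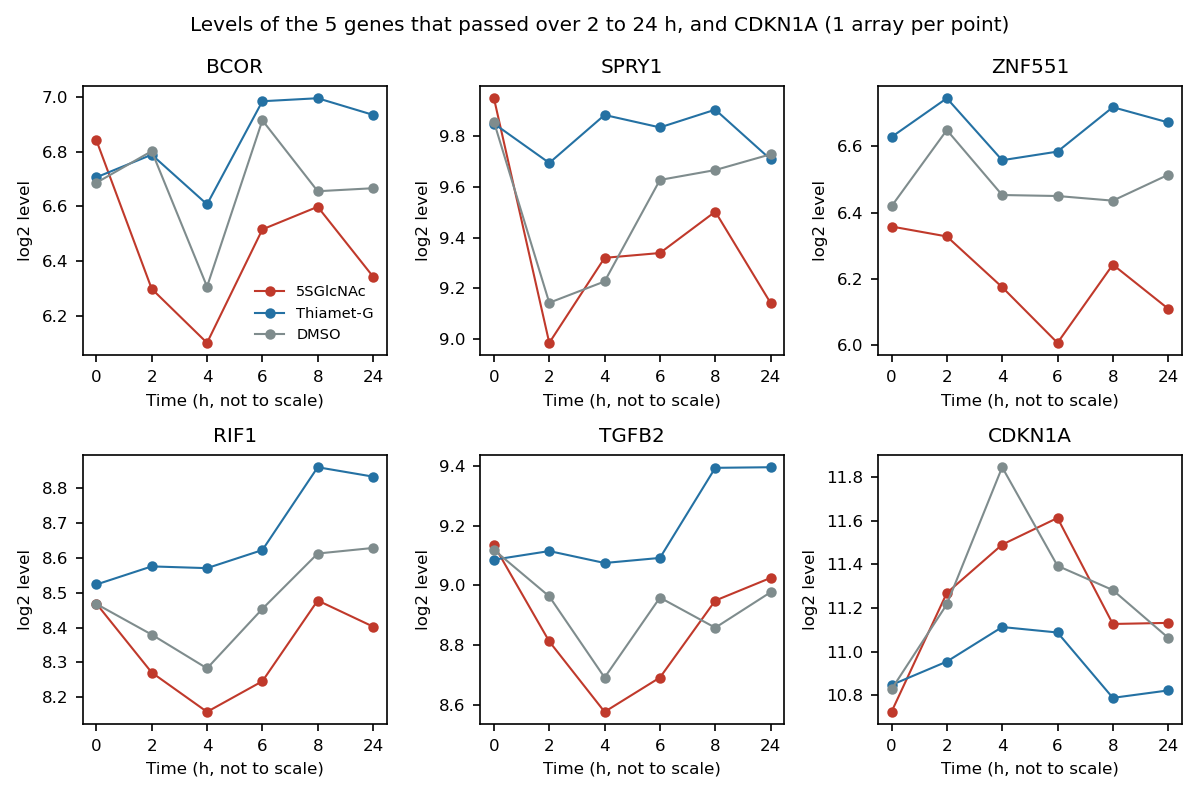
Log2 levels (y axis) by time in h (x axis, not to scale) of the 5 genes that passed over 2 to 24 h and of CDKN1A, with 1 array per point for 5SGlcNAc, Thiamet-G and DMSO. From 2 h onward the 5SGlcNAc line runs below the Thiamet-G line for BCOR, SPRY1, ZNF551, RIF1 and TGFB2, and above it for CDKN1A.

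The genes with the next smallest p and 1 sign in all pairs did not pass. CDKN1A, which encodes the cell cycle inhibitor p21, had levels of 11.27, 11.49, 11.61, 11.13 and 11.13 with 5SGlcNAc, against 10.96, 11.11, 11.09, 10.79 and 10.82 with Thiamet-G. All 5SGlcNAc levels exceeded all Thiamet-G levels. The mean difference of 0.37 ± 0.050 (SE, 5 pairs) had a limma adjusted p of 0.081, and DMSO levels were 11.22, 11.84, 11.39, 11.28 and 11.06, nearer those of 5SGlcNAc. The other 7 genes on the higher side were ZNF329, KLHL41, TNFSF9 (the ligand of the costimulatory receptor 4-1BB), NEU1 (a lysosomal sialidase), ABCC5 (an exporter of cyclic nucleotides), HOOK2 (a microtubule linker protein) and the pseudogene ZNF204P, with mean differences of 0.33 to 0.42 and limma adjusted p of 0.081 to 0.14.

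On the lower side, 8 genes had mean differences of -0.40 to -0.30 and limma adjusted p of 0.081 to 0.084. They were CHML (a Rab escort protein), KANK1 (an adaptor at the cell cortex), TLR4 (the receptor of lipopolysaccharide), EDN1 (endothelin 1, a vasoconstrictor peptide), PTBP3 (an RNA-binding splicing regulator), FOSL2 (an AP-1 subunit), CITED2 (a coregulator that binds CBP and p300) and ARHGAP11A. The dimmer probe sets of FOSL2 and PTBP3 did not keep 1 sign in all pairs. Their mean differences were -0.21 and -0.04 for FOSL2 and -0.11 and -0.22 for PTBP3. CITED2 had levels of 9.43, 9.55, 9.60, 9.72 and 9.78 with 5SGlcNAc, against 9.85, 9.76, 9.96, 10.24 and 10.11 with Thiamet-G. DMSO levels were 9.40, 9.39, 9.86, 9.71 and 9.77, close to those of 5SGlcNAc at all times but 6 h.

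Mean differences from DMSO, which share the 5 DMSO arrays, are given side by side for both inhibitors. They were -0.22 with 5SGlcNAc and 0.33 with Thiamet-G for SPRY1, -0.30 and 0.19 for BCOR, -0.08 and 0.32 for TGFB2, -0.03 and -0.41 for CDKN1A and -0.01 and 0.36 for CITED2. None of these differences from DMSO passed (limma adjusted p of 0.17 or more).

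The 48 h arrays, which the rule that named these 21 genes did not use, gave a difference of the same sign for all 21, and 12 of them passed there with that sign (limma), beside 13.6% of all genes in either direction. Of the 5 genes that passed over 2 to 24 h, 4 passed at 48 h: SPRY1 at -0.69, TGFB2 at -0.57, BCOR at -0.46 and RIF1 at -0.21. ZNF551 was at -0.04 and did not pass. Others of the 21 were also near 0 at 48 h, with EDN1 at -0.03, TLR4 at -0.06 and KLHL41 at 0.09. How many of all genes kept their sign at 48 h was not counted. CDKN1A was at 0.55 ± 0.060 and TNFSF9 at 0.61 ± 0.062 (SE, 3 arrays against 3; limma adjusted p = 0.00062 and 0.00041). At 0 h, 11 of the 21 genes had the sign of the later mean, with sizes of 0.012 to 0.353.

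**Figure D2:**
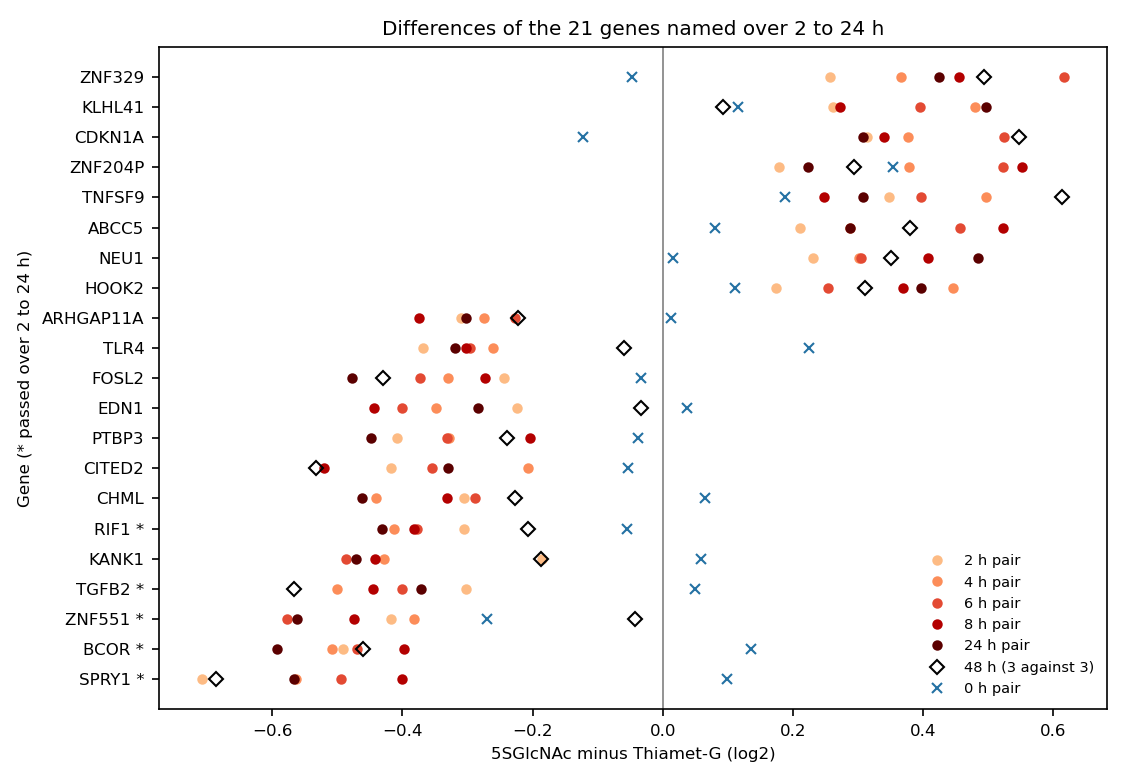
5SGlcNAc minus Thiamet-G (x axis, log2) for the 21 genes named over 2 to 24 h (y axis; those with an asterisk passed), with a filled point for each pair, a cross for the 0 h pair and an open diamond for 48 h. The 5 pairs of a gene lie on 1 side of 0, as the genes were chosen to do. The 48 h diamond lies on the same side for all 21, though near 0 for EDN1, ZNF551 and TLR4.

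The transcripts of the 2 target enzymes moved apart over time, in opposite directions on their brightest probe sets. OGA had levels of 10.56, 10.64, 10.36, 9.92 and 8.69 in the 5SGlcNAc arrays of 2, 4, 6, 8 and 24 h, against 10.64, 10.65, 11.05, 11.29 and 10.90 in the Thiamet-G arrays. DMSO gave 10.55, 10.66, 10.97, 10.82 and 10.74. The inhibitors coincided at 2 and 4 h and did not overlap from 6 h on, with differences of -0.08, -0.01, -0.69, -1.38 and -2.21, against 0.08 at 0 h. The second OGA probe set gave -0.08, -0.20, -0.69, -1.48 and -2.28, and the third and dimmest -0.54 at 24 h. At 48 h, the OGA difference was -1.70 ± 0.045 (SE, 3 arrays against 3).

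OGT had levels of 11.50, 11.58, 12.03, 12.44 and 12.74 with 5SGlcNAc on its brightest probe set, against 11.42, 10.89, 11.35, 11.39 and 11.36 with Thiamet-G and 11.38, 11.30, 11.64, 11.57 and 11.53 with DMSO. The 5SGlcNAc levels climbed away from both others, and the differences from Thiamet-G were 0.08, 0.69, 0.69, 1.05 and 1.38, against 0.21 at 0 h. The second OGT probe set went the other way after 4 h, at 0.10, 0.61, -0.26, -0.46 and -2.44, and so did another, at 0.04, 0.60, -0.08, -0.26 and -1.29. The other 2 were at -0.16 and -0.08 at 24 h. A statement on OGT as a gene therefore depends on the probe set: the mean of all 5 was -0.52 at 24 h, against 1.38 for the brightest. At 4 h, where 4 of the 5 probe sets were 0.60 to 0.75 higher with 5SGlcNAc, the brightest was lower with Thiamet-G than in any other array. That Thiamet-G array also had the widest ACTB gap of the 10, and the part it plays here was not tested.

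Because these differences grew with time, neither gene passed as a steady difference over 2 to 24 h (mean 0.78 ± 0.154, limma adjusted p = 0.16 for OGT; -0.87 ± 0.288, adjusted p = 0.27 for OGA; SE, 5 pairs). None of the other 6 genes measured for O-GlcNAc cycling or for the hexosamine pathway, which makes the sugar donor, passed. NAGK, which phosphorylates salvaged N-acetylglucosamine, had the smallest p, with differences of 0.12, 0.18, 0.17, 0.26 and 0.02.

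**Figure D3:**
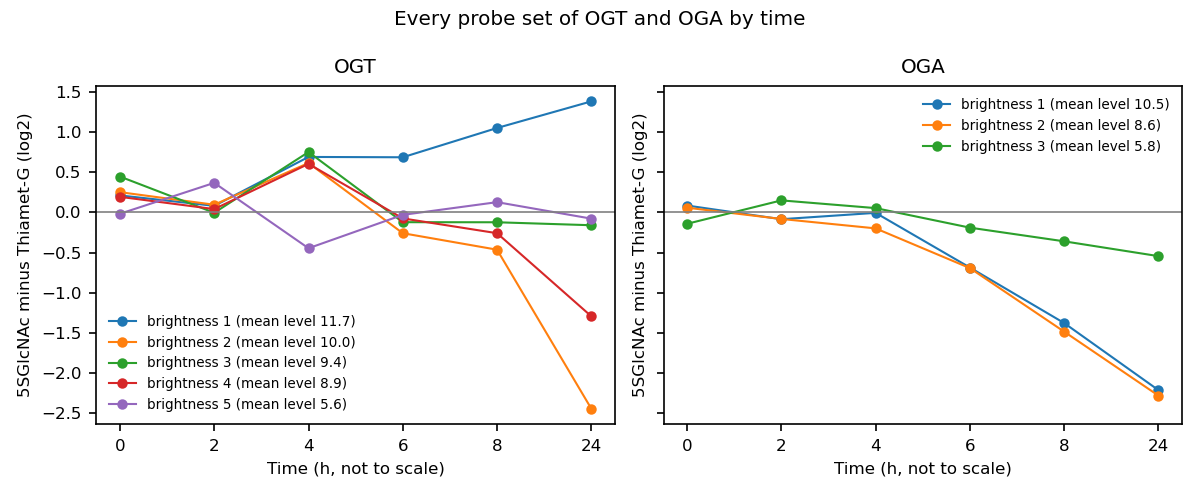
5SGlcNAc minus Thiamet-G (y axis, log2) by time in h (x axis, not to scale) for each of the 5 probe sets of OGT and the 3 of OGA, in order of brightness, with 1 pair of arrays per point. The 2 brighter OGA probe sets reach -2.21 and -2.28 at 24 h, whereas the OGT probe sets part after 4 h and span 1.38 to -2.44 at 24 h.

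A few NRF2 targets stood apart between the inhibitors at 24 h, while no measured target was past 1.5-fold at 2 to 8 h. HMOX1, the haem oxygenase that degrades haem, had levels of 8.53, 8.61, 8.54, 8.83 and 11.04 with 5SGlcNAc, against 8.50, 8.52, 8.36, 8.37 and 8.55 with Thiamet-G and 8.64, 8.67, 8.34, 8.53 and 8.73 with DMSO. Only the 5SGlcNAc array of 24 h left the common range of the other 14 arrays, and the 8 h array was its upper end. The differences from Thiamet-G were 0.03, 0.09, 0.18, 0.46 and 2.49, the last a 5.62-fold difference. HMOX1 was the 1 gene of 11963 (0.00836%) that passed the limma test of the 24 h difference against the mean of 2 to 8 h, at 2.30 ± 0.169 (SE; adjusted p = 0.040), in which the lone 24 h pair is assumed to vary like the earlier pairs. Its adjusted p lay between 6.4e-08 and 0.26 over 10 alternatives, and the call was lost without the 2, 4 or 6 h pair. At an unadjusted p of 0.05, 690 genes (5.77%) were higher and 1229 (10.3%) lower at 24 h than at the earlier times.

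GCLM, the modifier subunit of the enzyme that starts glutathione synthesis, had levels of 11.01, 11.12, 11.34, 11.43 and 12.48 with 5SGlcNAc, against 11.16, 11.04, 11.27, 11.43 and 11.18 with Thiamet-G. The inhibitors were alike to 8 h and 1.29 apart at 24 h, a change against 2 to 8 h of 1.29 ± 0.121 that did not pass (SE; limma adjusted p = 0.098). TXNRD1, a thioredoxin reductase, gave differences of -0.04, -0.10, 0.01, -0.02 and 0.64. GCLC, the catalytic partner of GCLM, was at 0.04, 0.19, 0.14, 0.24 and 0.55 on its brighter probe set. The other GCLC probe set, of similar brightness, was at -0.15, 0.01, 0.19, 0.13 and 0.505. SLC7A11, the cystine carrier, was at -0.21, -0.23, 0.04, -0.11 and 0.56 on its brightest probe set. The dimmer SLC7A11 probe sets were at 0.45 and -0.04 at 24 h.

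NQO1, a quinone reductase, had 11.98, 11.99, 12.11, 12.12 and 12.57 with 5SGlcNAc, against 11.94 to 12.19 with Thiamet-G, whose highest level was also that of 24 h. Its difference of 0.39 at 24 h compares with 0.94 ± 0.054 at 48 h (SE, 3 arrays against 3). These values are of its brightest probe set. The dimmer NQO1 probe sets were at 0.73 and 0.25 at 24 h, the former past 1.5-fold, and at 1.11 and 1.12 at 48 h. The regulators NFE2L2 (NRF2 itself) and KEAP1 differed by 0.155 and 0.11 at 24 h, beside an SD of 0.141 over genes in the 0 h pair, and by -0.08 to 0.13 before. BACH1, a repressor of HMOX1, was at -0.33, -0.18, -0.31, -0.11 and -0.10 (mean -0.21 ± 0.053 SE; limma adjusted p = 0.20), and none of the 11 NRF2 regulators measured passed. TXNIP, an inhibitor of thioredoxin that responds to glucose, was at -0.35 at 24 h and between -0.12 and 0.12 before.

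Of 39 NRF2 targets measured, 0 passed as a steady difference (limma), 3 were higher and 0 lower at an unadjusted p of 0.05, and 8 were higher in all 5 pairs and 0 lower. Of all genes, 6.23% were higher at that unadjusted p and 6.43% higher in all pairs. The median difference of the list was 0.03, 0.04, 0.05, 0.04 and 0.13, beside 0.01, 0.01, 0.01, -0.00 and -0.03 over all genes. At 24 h 5 of the 39 were higher by over 1.5-fold, beside 0.476% of all genes: HMOX1, GCLM, TRIM16, PIR and TXNRD1. PIR, a nuclear quercetinase, was at 0.69 at 24 h and at 0.00 to 0.16 before. Of the 39, 28 were above 0 and 11 below at 24 h, beside 5293 above and 6668 below of all genes. Among the 11 were EPHX1, an epoxide hydrolase, at -0.27 and GSTP1, a glutathione transferase, at -0.19. Past 1.5-fold in the lower direction, beside 0.869% of all genes, was 1 member, the glycine transporter SLC6A9, at -0.69. The median of the list against DMSO at 24 h was 0.14 with 5SGlcNAc and 0.00 with Thiamet-G, from the same DMSO array. At 48 h the median difference was 0.32, and 26 of 39 passed as higher (limma), beside 6.83% of all genes.

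NRF2 binds the antioxidant response element, whose core was searched as TGACNNNGC on both strands in the 250 bases before each RefSeq start (GRCh38.p14). Of 31 list members with such a window, 11 held it (35.5%), as did 3609 of 27305 genes overall (13.2%). A gene counted if any of its windows held the core, and numbers of starts were not matched. The 27305 also include genes not measured here, so the 2 shares are not on the same base. The windows of NQO1, TRIM16 and PIR do not hold these letters. HMOX1 and SLC7A11 had no window, so the counts and medians by core leave them out. Of the 11 with the core, 6 were above 0 and 5 below at 24 h, beside 5293 and 6668 of all genes. The 11 had differences of -0.27 to 1.29, GSTP1 and EPHX1 being among the 5 below. Their median was 0.03, and that of the 20 without the core was 0.17. The matches in GCLM, TXNRD1 (at 2 starts) and ME1 are shown because GCLM and TXNRD1 were among the members past 1.5-fold at 24 h and ME1 among those larger at 48 h. Capitals mark the core, which reads GCNNNGTCA where it lies on the other strand, and each line gives the bases around it 5′ to 3′ on the strand of the gene.
GCLM, chr1:93909431-93909504, minus strand: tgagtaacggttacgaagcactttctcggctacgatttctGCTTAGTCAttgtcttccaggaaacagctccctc
TXNRD1, chr12:104215640-104215728, plus strand: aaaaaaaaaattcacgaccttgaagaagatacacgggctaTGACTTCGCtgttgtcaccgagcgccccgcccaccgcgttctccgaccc
TXNRD1, chr12:104286890-104286978, plus strand: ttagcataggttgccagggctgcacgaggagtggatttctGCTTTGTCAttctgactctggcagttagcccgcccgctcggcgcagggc
ME1, chr6:83431140-83431228, minus strand: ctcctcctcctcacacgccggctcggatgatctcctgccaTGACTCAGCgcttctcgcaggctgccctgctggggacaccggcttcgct
The core began 34 bases before the start in GCLM, 99 and 102 before the 2 starts of TXNRD1 and 137 before that of ME1. In level, GCLM and TXNRD1 differed at 24 h by 1.29 and 0.64, and ME1, which makes NADPH from malate, by 0.22 at 24 h and 0.49 at 48 h.

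Some immediate early genes, which encode transcription factors that cells switch on soon after a stimulus, were among the 35 genes past 1.5-fold at 2 h. FOS, ATF3, EGR1, IFIT1, IFIT2, IFIT3 and OASL, and PIR, SLC6A9, EPHX1 and GSTP1 above, were chosen after their values were seen. FOS had levels of 9.11, 7.74, 7.75, 7.02 and 6.54 with 5SGlcNAc, against 7.88, 7.19, 7.03, 7.09 and 6.87 with Thiamet-G and 8.38, 8.34, 7.53, 7.21 and 7.20 with DMSO. All 3 series stood at 6.48 to 6.54 at 0 h and were higher at 2 h, 5SGlcNAc most and Thiamet-G least. The difference of 1.24 at 2 h, 2.36-fold, became -0.33 at 24 h.

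ATF3 had levels of 9.85, 9.33, 8.29, 7.71 and 7.39 with 5SGlcNAc, against 8.64, 8.13, 8.07, 7.95 and 7.56 with Thiamet-G and 8.47, 9.65, 8.36, 7.85 and 7.58 with DMSO. At 2 h the 5SGlcNAc array stood above both others, and at 4 h the Thiamet-G array stood below both. EGR1 differed by 0.90, 0.62, 0.36, -0.05 and -0.40, and FOSB by 0.88, 1.005, 0.58, 0.15 and 0.08. Of 24 immediate early genes measured, 4 were higher by over 1.5-fold at 2 h, beside 0.176% of all genes, and 4 at 4 h, beside 0.376%. At 24 h the list held 6 members higher and 18 lower, and all genes 5293 and 6668. None passed as a steady difference, and the list medians were 0.12, 0.08, -0.01, -0.07 and -0.15. The 2 to 6 h values rest on 1 array per treatment and time, the Thiamet-G and DMSO arrays of 4 h had the widest ACTB gaps, and their part in these values was not tested.

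**Figure D4:**
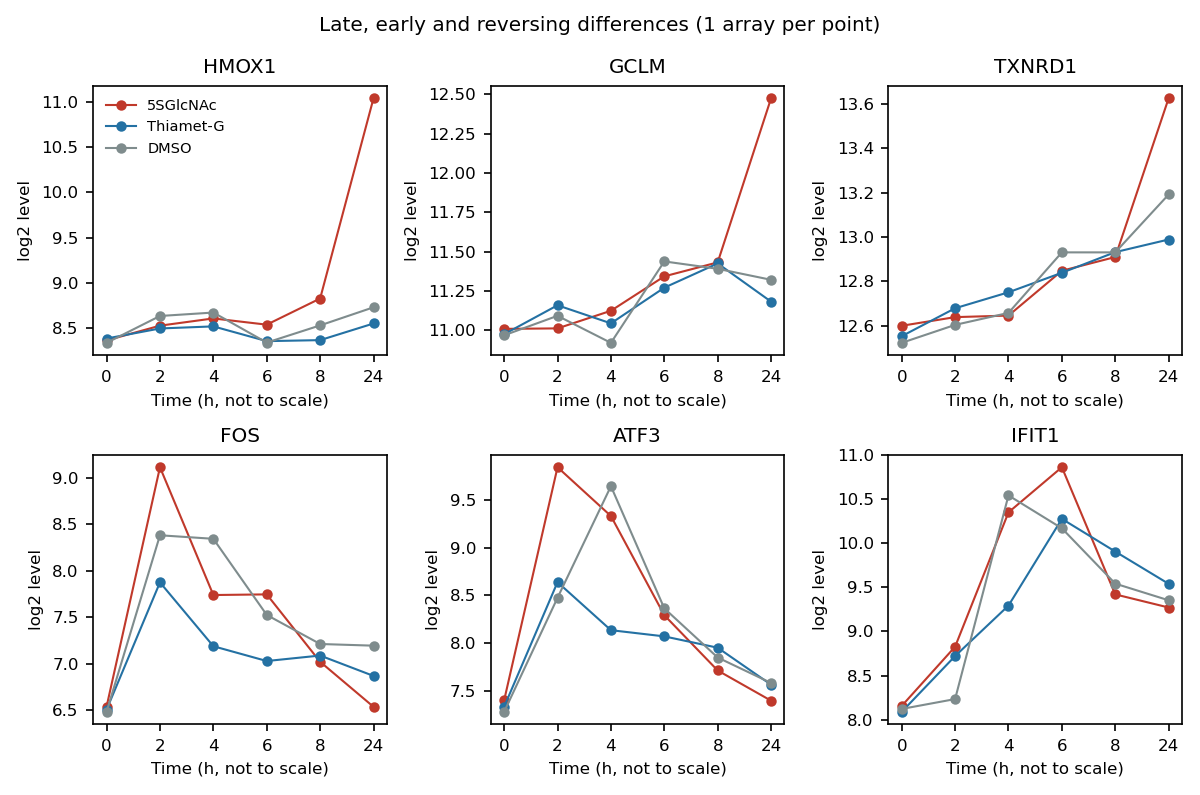
Log2 levels (y axis) by time in h (x axis, not to scale) of HMOX1, GCLM, TXNRD1, FOS, ATF3 and IFIT1, with 1 array per point for 5SGlcNAc, Thiamet-G and DMSO. HMOX1, GCLM and TXNRD1 part at 24 h, FOS and ATF3 differ most at 2 or 4 h, and IFIT1 is higher with 5SGlcNAc than with Thiamet-G at 4 and 6 h and lower at 8 and 24 h.

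Interferon-stimulated genes, which encode antiviral proteins, had differences mostly above 0 up to 6 h and mostly below 0 from 8 h on, as single pairs with no test. IFIT1, which binds foreign RNA caps, had levels of 8.83, 10.35, 10.86, 9.42 and 9.27 with 5SGlcNAc, against 8.72, 9.29, 10.28, 9.91 and 9.54 with Thiamet-G. DMSO levels were 8.23, 10.54, 10.17, 9.54 and 9.35. At 4 h Thiamet-G was below both other arrays, at 6 h 5SGlcNAc was above both, and at 8 and 24 h Thiamet-G was the highest. The differences were 0.10, 1.06, 0.59, -0.49 and -0.27, and -0.75 ± 0.076 at 48 h (SE, 3 arrays against 3; limma adjusted p = 0.00040).

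IFIT2, IFIT3 and OASL, antiviral proteins of the same response, followed with 0.85, 0.90 and 0.81 at 4 h, and with -0.31, -0.21 and -0.31 at 8 h. Of 27 interferon-stimulated genes measured, 22 were higher at 4 h and 20 at 6 h, and 18 were lower at 8 h and 22 at 24 h. Of all genes, 6229 were higher at 4 h and 6497 at 6 h, and 6086 were lower at 8 h and 6668 at 24 h. The list medians were 0.08, 0.22, 0.12, -0.15 and -0.21, and 5 members were past 1.5-fold higher at 4 h and 4 at 6 h, beside 0.376% and 0.192% of all genes. Against DMSO, the medians at 4 h were -0.09 with 5SGlcNAc and -0.31 with Thiamet-G, at 6 h 0.17 and 0.08, and at 24 h -0.15 and 0.09. The Thiamet-G and DMSO arrays of 4 h had the widest ACTB gaps, and their part in the 4 h values was not tested. None of the 27 passed as a steady difference. At 48 h the list median was -0.22 and 16 passed as lower (limma), beside 6.74% of all genes.

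Feedback genes of the ERK pathway, which are transcribed when ERK is active and restrain it, had a median below 0 in each pair from 2 h on. Of 14 measured, SPRY1 passed as lower, 9 were lower and 0 higher at an unadjusted p of 0.05 (7.2% of all genes were lower), and 6 were lower in all 5 pairs (7.78% of all genes). The list medians were -0.12, -0.09, -0.10, -0.20 and -0.22, against -0.00 at 0 h. DUSP6, the phosphatase of ERK in the cytoplasm, was at -0.39, -0.27, -0.15, -0.33 and -0.16 (mean -0.26 ± 0.053 SE, 5 pairs; limma adjusted p = 0.16). SPRY2, a second Sprouty gene, was at -0.23, -0.04, -0.08, -0.26 and -0.24. Against DMSO, the medians at 24 h were -0.18 with 5SGlcNAc and 0.04 with Thiamet-G, and at 2 h -0.00 and 0.10. At 48 h the list median was -0.28, and 8 of the 14 passed as lower (limma), beside 6.74% of all genes.

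Among 10 genes of the EGF family and its receptors, which feed into ERK, none passed. NRG1, the ligand of ERBB3 and ERBB4, was at -0.20, -0.16, -0.36, -0.47 and -0.45 on its brightest probe set (mean -0.33 ± 0.060 SE, 5 pairs; limma adjusted p = 0.15), and its 6 probe sets did not share 1 sign. EREG, a ligand of EGFR, was at -0.36, -0.32, -0.08, -0.62 and -0.35 (mean -0.35 ± 0.073; adjusted p = 0.17). HBEGF, another ligand of EGFR, was at 0.03, 0.09, 0.14, 0.08 and 0.33. The groups of NRG1 and EREG at matched times thus differed in 1 direction, but by less than the test required.

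**Figure D5:**
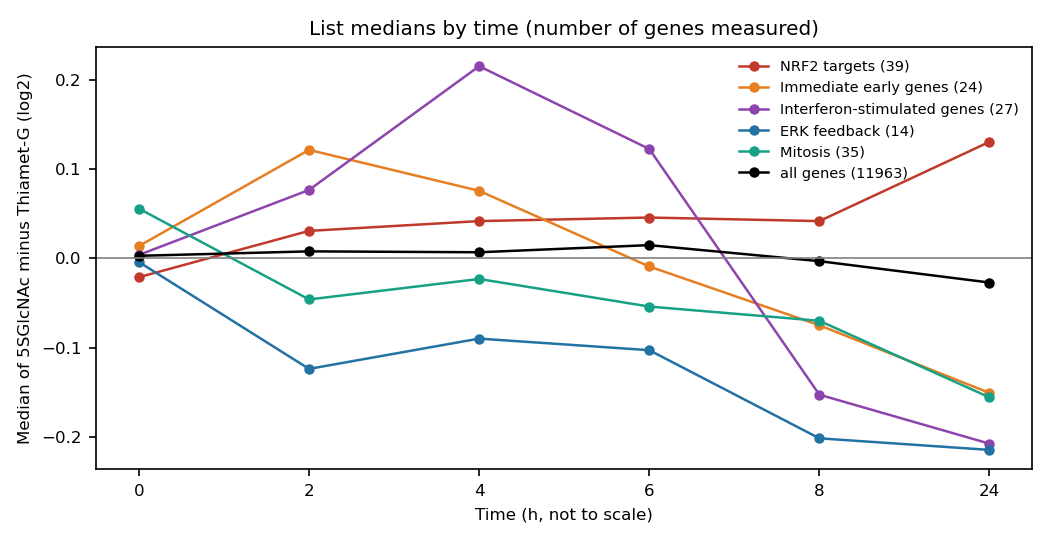
Median of 5SGlcNAc minus Thiamet-G (y axis, log2) by time in h (x axis, not to scale) for 5 gene lists and all genes, with the number of genes measured in the legend. Interferon-stimulated genes go to 0.22 at 4 h and -0.21 at 24 h, ERK feedback genes lie below 0 at 2 to 24 h, and NRF2 targets reach 0.13 at 24 h, beside -0.03 for all genes.

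Genes of cell division had small differences over 2 to 24 h, and none passed as a steady difference. Of 35 mitosis genes measured, 8 were lower and 0 higher at an unadjusted p of 0.05, beside 7.2% of all genes lower, and 9 were lower and 0 higher in all 5 pairs, beside 7.78% lower. The medians were -0.05, -0.02, -0.05, -0.07 and -0.16. TTK, a spindle checkpoint kinase, was at -0.13, -0.24, -0.24, -0.26 and -0.06, and ECT2, which starts cytokinesis, was at -0.36, -0.20, -0.32, -0.32 and 0.02. Both of these members were lower with 5SGlcNAc at 2 to 8 h and near 0 at 24 h, where the list median was lowest. Of 36 DNA replication genes, 6 were lower and 1 higher at an unadjusted p of 0.05, beside 7.2% and 6.23% of all genes, and 8 were lower in all 5 pairs, beside 7.78%. Their median was 0.01 at 2 h, a sign that turned under median centring (-0.01), and -0.22 at 24 h. RFC3, a subunit of the clamp loader, was at -0.19, -0.19, -0.25, -0.16 and -0.22 (mean -0.20 ± 0.043 SE, 5 pairs; limma adjusted p = 0.17). At 24 h 30 of the 35 mitosis and 29 of the 36 replication genes were below 0, beside 6668 of all 11963 genes. At 48 h 13 mitosis genes passed as lower and 1 as higher (limma). Of the replication genes, 8 passed there as lower and 2 as higher. Of all genes, 6.74% passed as lower at 48 h and 6.83% as higher.

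NF-kB targets, which encode cytokines and regulators of inflammation, did not share a direction. IL11, a cytokine of the IL-6 family, was at 0.69, 0.51, 0.64, 0.09 and 0.24, whereas CXCL8, the neutrophil chemoattractant, was at -0.20, -0.31, -0.19, -0.47 and -0.72 and already at -0.20 at 0 h. These are the brightest probe sets. The dimmer IL11 probe set was at 0.05, -0.04, 0.24, 0.13 and 0.21, so it lacked the large differences of 2 and 4 h. The dimmer CXCL8 probe set was at 0.19, -0.14, -0.15, -0.22 and -0.67. TNFAIP3, a deubiquitinase that restrains NF-kB, was at -0.30, -0.04, -0.25, -0.27 and -0.18. None of the 21 measured passed as a steady difference. At 24 h 16 were lower and 5 higher, beside 6668 lower and 5293 higher of all genes. By over 1.5-fold, 3 were lower at 24 h, beside 0.869% of all genes. At 48 h the list median was -0.23. There 11 of the 21 passed as lower and 1 as higher (limma), beside 6.74% and 6.83% of all genes.

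Of 17 cholesterol synthesis genes, none passed and 5 were higher at an unadjusted p of 0.05, beside 6.23% of all genes, with list medians of 0.03, 0.12, 0.11, 0.20 and -0.03; the last turned to 0.05 under median centring. PMVK, phosphomevalonate kinase, was at 0.11, 0.12, 0.12, 0.42 and 0.35. IDI1, which makes dimethylallyl diphosphate, was at 0.16, 0.34, 0.29, 0.29 and -0.02. Of 16 p53 targets none passed, and 2, CDKN1A and ZMAT3, were higher and 0 lower at an unadjusted p of 0.05, beside 6.23% of all genes higher. ZMAT3, an RNA-binding zinc finger protein, had a mean difference of 0.17 (limma adjusted p = 0.36), and the list medians lay between -0.07 and 0.13.

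At 24 h further genes stood apart in the single pair, with no test. SERPINI1, a serine protease inhibitor, and ACOT13, an acyl-CoA thioesterase, grew with time like OGT, at -0.13, 0.22, 0.39, 0.41 and 1.02 for SERPINI1 and 0.08, 0.17, 0.44, 0.44 and 0.88 for ACOT13. On the lower side, the transporter SLCO4A1 was at -1.20 at 24 h and between -0.25 and 0.10 before, with levels of 9.57 with 5SGlcNAc against 10.77 with Thiamet-G and 10.64 with DMSO. NNMT, which methylates nicotinamide, was at -0.86 and between -0.11 and 0.09 before. CYP1A1 and CYP1B1, which oxidise aromatic compounds and are targets of the aryl hydrocarbon receptor AHR, were at -1.02 and -0.88 at 24 h. AHR itself was at 0.08 at 24 h and at -0.24, -0.35, -0.22 and -0.47 before, and none of the 8 genes on the list of that receptor passed as a steady difference. At 24 h, 4 of the 8 were higher and 4 lower, with a median of 0.03.

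The test of 24 h against 2 to 8 h named 7 further genes by their p, none of which passed (limma adjusted p of 0.098 to 0.15): GCLM, BNC2 and NYX on the higher side, and VIPR1, S100P, SLCO4A1 and ALDH1A3 on the lower. VIPR1, a receptor of vasoactive intestinal peptide, was at -0.75 at 24 h and -0.60 at 48 h, and S100P, a calcium-binding protein, at -0.89 and -0.54. ALDH1A3, which makes retinoic acid, was at -0.96 and -0.38. BNC2 and NYX did not keep their difference: BNC2, a zinc finger protein, was at 0.87 at 24 h, -0.09 at 48 h and 0.52 in the 0 h pair, and NYX at 0.95 at 24 h and 0.12 at 48 h.

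Differences at 48 h were set against those of 2 to 24 h in a limma fit of 16 arrays. It called 28 of 11963 genes (0.234%), 7 with a higher (0.0585%) and 21 with a lower difference (0.176%) at 48 h. TRIM16, an NRF2-linked ubiquitin ligase, was at 1.34 at 48 h and averaged 0.11 over 2 to 24 h, a change of 1.23 ± 0.156 (SE; adjusted p = 0.014). NQO1 changed by 0.80 ± 0.087 (adjusted p = 0.011) and ME1 by 0.49 ± 0.085 (adjusted p = 0.042). At 48 h the dimmer ME1 probe sets were at 0.36 and, for that of mean level 4.75, at -0.09. NAV3 changed by 0.63 on its brightest probe set, of mean level 10.64. Its others, of mean levels 4.37 and 3.59, were at 0.13 and 0.00 at 48 h. TMEM268 changed by 0.50, with differences of 0.27 at 48 h and -0.23 over 2 to 24 h.

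Among the genes called, the 5 largest changes downward were in AGR2 (a protein disulfide isomerase of secretory cells), NNMT, APOBEC3G (a cytidine deaminase that restricts retroviruses), IGFBP1 (a binding protein of insulin-like growth factors) and PTGES (a prostaglandin E synthase). They were -1.29, -1.16, -1.02, -0.87 and -0.85 (limma adjusted p of 0.014 to 0.042). Of these, AGR2 and NNMT were at -0.83 and -0.86 at 24 h, and APOBEC3G, IGFBP1 and PTGES at -0.53, -0.45 and -0.51. The APOBEC3G change was on its brighter probe set only. Its other probe set, with a mean level of 6.88 beside 7.08, was at 0.08 at 48 h and averaged 0.09 over 2 to 24 h. AGR2 is also 1 of the 18 luminal markers, which had a median difference of -0.16 at 24 h and -0.11 at 48 h, where 6 of them passed as lower, beside 6.74% of all genes, and their part in its change was not tested. Leaving out the 24 h pair raised the count of calls to 268, and leaving out any 1 of the 48 h replicates left 0, with 894 to 1258 genes at an unadjusted p of 0.05; without the 2, 4, 6 or 8 h pair it was 5, 6, 8 and 2. Under median centring the split was 5 higher and 42 lower.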

How the data were processed

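Total RNA of MDA-MB-231 cells was measured on Affymetrix 3' expression arrays. Each probe set has a log2 level that the authors computed with RMA and deposited, per the submitters' processing notes; no version is given in the sources used here. RMA equalises the distributions of arrays processed together, which can hide a change of most genes. The arrays of 0 to 24 h (6 decimals) and of 48 h (2 decimals) form 2 sets, whose levels were not compared.

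Of 22277 probe sets, 19064 named 1 gene, 1043 several, 2108 none and 62 were controls; symbols were updated through Entrez identifiers for 19052. For each of 11963 genes, the brightest probe set was kept, judged by its mean in the 10 paired arrays. Genes were tested two-sided with limma 3.58.1 (lmFit, eBayes) in R 4.3.3, with Benjamini-Hochberg adjustment over all genes. The number of arrays limits the precision, with a median SE of 0.0586 over 2 to 24 h and 0.1236 for 24 h against 2 to 8 h. Because 1 array stood for each treatment and time, p-values over 2 to 24 h measure how steady a difference was, and p-values at 48 h the spread between samples, which may be technical. A simulation gave 200 genes a shift of the same size at all 5 times, with independent noise. Of genes shifted by 0.3, 0.6 and 1.2, the test over 2 to 24 h called 49.3%, 95.5% and 100%. With the shift at 24 h only, the test of 24 h against 2 to 8 h called 0%, 4.48% and 72.7%. Shifts that grow with time, and other numbers of changed genes, were not simulated, so these shares do not cover them.

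The pairs, lists and rules were chosen with earlier results of these data known. Named were genes that passed over 2 to 24 h, the 8 smallest p in each direction with 1 sign in all pairs, up to 5 genes in each direction for the other tests and for 24 h, up to 3 members per list described, the OGT, OGA and NRF2 pathway genes, and a few chosen after their values were seen. Same-numbered 48 h arrays of the 2 inhibitors had deviations correlating at -0.089, 0.099 and 0.169, so the numbers were not treated as pairs. Promoter sequences are from RefSeq (GRCh38.p14); 31 of 39 NRF2 targets matched. Alternatives were other scalings, a filter on dim genes, other uses of probe sets, other variance models, added or omitted arrays, and blocks; testing every probe set, and list medians under other scalings, were added after seeing the data.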

Additional observations from a re-analysis of the deposited data

Results flagged for a closer look

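In 13 of 51 genes checked, 1 of the 5 pairs lay apart from the other 4 by more than 0.71 of the range of all 5. Chance flags about 1 in 20 groups, and many of these genes were named because of their 24 h value. In 12 of the 13 the pair was that of 24 h: HMOX1 at 2.49, GCLM at 1.295, BNC2 at 0.871, NYX at 0.949, TRIM16 at 0.717, TXNRD1 at 0.637, VIPR1 at -0.753, S100P at -0.889, SLCO4A1 at -1.199, ALDH1A3 at -0.963, NNMT at -0.865 and CYP1B1 at -0.88. In KANK1 it was the 2 h pair, at -0.185, with the later 4 pairs farther from 0.

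In a second set, the difference between the inhibitors itself differed between times by a limma test. HMOX1 was 2.30 larger at 24 h than over 2 to 8 h. Between 48 h and 2 to 24 h, the difference changed by 1.226 for TRIM16, 0.799 for NQO1, 0.629 for NAV3, 0.502 for TMEM268, 0.488 for ME1, -1.288 for AGR2, -1.161 for NNMT, -1.015 for APOBEC3G, -0.865 for IGFBP1 and -0.847 for PTGES. The APOBEC3G change was on the brighter of its probe sets and not on the other. The NAV3 change was on its brightest probe set, and its dim ones were at 0.133 and 0.003 at 48 h.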

How the results depend on the processing

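For the steady difference over 2 to 24 h, 5 genes passed. Quantile normalization, median centring, the mean of probe sets and leaving out probe sets of shared sequence each gave 3, leaving out dim genes 28, trend and robust variance 166 and adding the DMSO arrays 31. Without the time block, with the 0 h difference subtracted, with every probe set tested, and without any 1 pair, 0 passed, with 460 to 2747 at an unadjusted p of 0.05. For 24 h against 2 to 8 h, where 1 gene passed, leaving out dim genes gave 33, trend and robust variance 350, adding the 0 h pair 2, and leaving out a pair 0 to 1. At 48 h, 1623 genes passed, 1056 with only the 6 arrays of both groups, 1149 with a replicate block, and 915 (without 5SGlcNAc replicate 1) to 1919 (without Thiamet-G replicate 2) without 1 array; 1073 and 1024 passed without 5SGlcNAc replicate 2 and Thiamet-G replicate 1. For 48 h against 2 to 24 h, 28 passed, 52 after quantile normalization, 47 after median centring, 0 with a replicate block (1296 at an unadjusted p of 0.05), and 0 to 268 without 1 pair or replicate.

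Directions turned for few named genes. RIF1 was at 0.115 without probe sets of shared sequence. The 24 h difference of OGT was -0.52 as the mean of its probe sets. Over 2 to 24 h, NFE2L2 was at -0.086 and TXNIP at 0.0024 with the 0 h difference subtracted, and SLC7A11 at -0.0038 as the mean of probe sets. Leaving out 1 pair gave -0.0395 (without 24 h) to 0.1459 for TXNRD1, -0.1304 (without 24 h) to 0.0686 for SLC7A11 and -0.0955 to 0.0236 (without 24 h) for TXNIP. Of the other values of named genes, 917 kept their direction and side of the threshold, 61 became called, 114 lost a call and 3 untested 24 h values (NNMT, OGA and CYP1B1) moved by over 0.141, the SD over genes at 0 h. The 74 list medians at 24 h recomputed under the other scalings each moved by less than that. Other scalings moved the median of all genes by at most 0.08 at any time. The causes were not tested.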
